A study of Mus musculus with 6 samples.

Results

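A module of 35 genes for neutrophil receptors, granules and oxidase was followed in whole lung of mice lacking lincRNA-Cox2, a long noncoding RNA transcribed beside Ptgs2. The genes were chosen by name for their known roles in neutrophils: 8 surface receptors, 4 adhesion molecules and surface antigens, 6 cytosolic and nuclear proteins, 4 azurophil granule proteins, 10 proteins of later granules or secreted proteins, and 3 oxidase subunits. The authors' deposited table listed 33 of the 35 among its 20494 gene clusters, under the symbols used here. It gave an adjusted p to 29 of them, among 16902 clusters with one. Ly6g and Elane are named only. Mpo, Ctsg, Ngp and Camp were listed at low means and had no adjusted p. The members include genes that other cells also use: macrophages and monocytes express Cybb, the integrin genes, Fpr2 and Clec4e, and epithelial or other tissue cells can make Lcn2, Ltf, Hp, Lrg1 and G0s2. These are examples only. Values of whole lung do not give the cell of origin of any member, including those that rose.

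Neutrophils are short-lived phagocytes that leave the bone marrow under the control of granulocyte colony-stimulating factor and chemokines, and many of them are held in the small vessels of the lung. They build their granules in waves: azurophil granules with myeloperoxidase and serine proteases come first, in bone marrow precursors, then specific granules and gelatinase granules, while receptors and the cytosolic calcium-binding proteins S100A8 and S100A9 are made up to the mature stage. On contact with microbes a membrane NADPH oxidase, assembled from cytosolic and membrane subunits, makes superoxide.

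The 6 libraries came from lungs of untreated male C57BL/6 mice aged 4 months, 3 of genotype lincRNA-Cox2 KO and 3 WT. The labels do not say which part of the locus was removed, how the line was made, or whether the mice were littermates, and they name no batch. Values are group means of normalized counts, reads per gene scaled by the size factor of each library. The replicates are taken as separate mice, so p-values measure the spread between these mice. The group means summed to 3.71e+07 per library in wild type and 3.68e+07 in knockout over all clusters in the authors' deposited table. These sums are scaled, so the depth of single libraries is unknown, while the relative size factors derived from low genes lay between 0.961 and 1.03. The targeted transcript averaged 311 in wild type and 0.666 in knockout by the authors' deposited table (adjusted p = 4.05e-91), and Ptgs2 had 2929 and 298 (adjusted p = 9.55e-11). The labelled tissue matched its markers: all 11 lung epithelial markers were listed in the authors' deposited table, with Sftpc at 82187 and 83359 and Ager at 40897 and 40243.

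Of the 29 tested members, 10 rose in knockout lung and 0 fell by the authors' DESeq2 comparison at an adjusted p under 0.05. They were the receptor genes Csf3r, Cxcr2, Clec4d and Fpr1, the cytosolic genes S100a8, S100a9 and Stfa2l1, and the granule or secreted protein genes Lcn2, Mmp8 and Retnlg, with means 1.26-fold to 2.37-fold higher. These 10 are 34.5% of the tested members, where 0.592% of all tested clusters were called higher and 0.497% lower. At an unadjusted p under 0.05, 14 members passed, 13 higher and 1 lower (G0s2), which is 48.3% of the tested members beside 8.47% of all tested clusters. The median log2 ratio of knockout to wild type means was 0.17 over the tested members, with a range of -0.84 to 1.25, beside -0.0013 over all tested clusters. By role, the median log2 ratio was 0.54 for the 8 receptors, 0.40 for the 6 cytosolic proteins, 0.17 for the 3 tested adhesion genes, 0.14 for the 8 tested later granule and secreted proteins, and -0.03 for the 3 oxidase subunits. Since the members were chosen with earlier results of these data known, these counts and medians describe the members and were not tested as a set. In whole tissue, a change in the number of neutrophils cannot be told apart from a change in RNA per neutrophil.

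**Figure D1:**
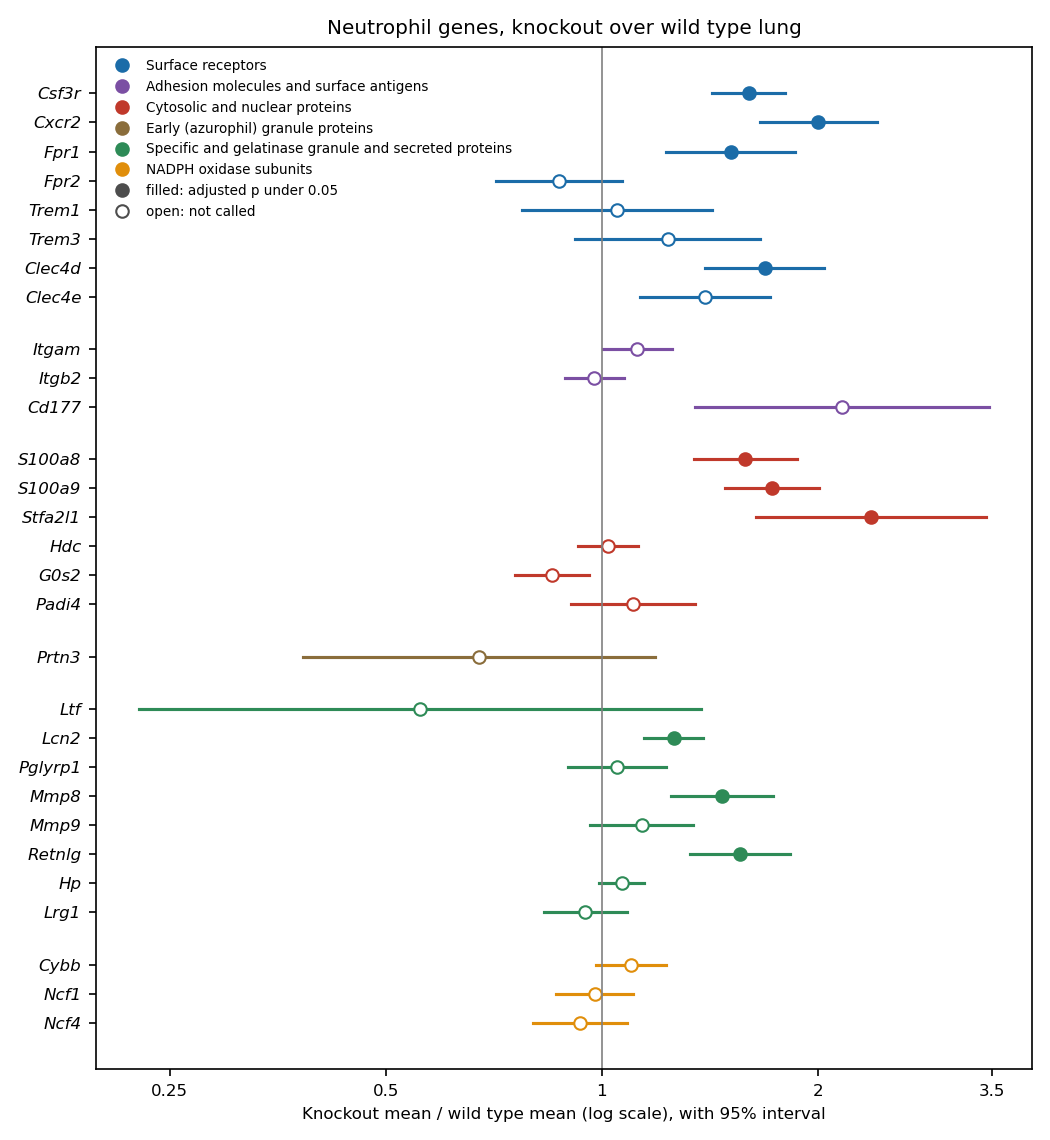
Ratio of the knockout mean to the wild type mean (log scale) of each of the 29 tested members, grouped by role. Points are ratios of the authors' group means, lines are 95% intervals implied by the authors' Wald statistics, and filled points have an adjusted p under 0.05. The 10 filled points lie between 1.26 and 2.37, and the 3 oxidase subunits have intervals that include 1.

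The plot of ratios by role gives 1 interval per gene. For each tested gene, the standard error (SE) of the log2 ratio of means was taken as that ratio divided by the authors' Wald statistic, and the 95% interval of the ratio follows from it. From the same SE the variation between libraries beyond counting error was derived as a coefficient of variation (CV). Its median was 6.73% over 14070 clusters with a mean of at least 50, and 10% of these clusters were above 14.8%.

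Among receptors, the 2 that set neutrophil production and recruitment changed with the smallest p-values. All called members are protein-coding genes, and coordinates are those of mm10 in GENCODE M21. Csf3r (chromosome 4, 126024550 to 126044440, plus strand), which encodes the G-CSF receptor, rose from 1726 to 2766 by the authors' deposited table. That is 1.60-fold (95% interval 1.42 to 1.80, adjusted p = 1.05e-11), the fifth smallest p among the 100 clusters called higher. Cxcr2 (chromosome 1, 74153989 to 74161246, plus strand), the receptor for chemokines such as those encoded by Cxcl1 and Cxcl2, rose from 365 to 732 by the authors' deposited table, 2.004-fold (1.66 to 2.42, adjusted p = 7.24e-10). Its paralogue Cxcr1, not a member, had normalized counts of 36.4, 42.7 and 35.4 in the wild type libraries and 58.5, 40.2 and 55.2 in the knockout libraries. The groups overlapped, as 1 knockout library lay within the wild type range.

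Fpr1 and Fpr2 encode receptors for formylated peptides, which bacteria and mitochondria release, and lie 3.88 kb apart on chromosome 17. Fpr1 (chromosome 17, 17876471 to 17883940, minus strand) rose from 402 to 608 by the authors' deposited table, 1.51-fold (1.23 to 1.86, adjusted p = 0.0131). For Fpr2 the authors' deposited table gave 568 and 494, a ratio of 0.871 (0.711 to 1.07, adjusted p = 0.859). The 2 intervals do not overlap, although the difference between the 2 genes was not tested. Fpr2 shares 48 exon bases with Fpr3 on the same strand in GENCODE M21, and how reads there were counted is not given in the sources used here.

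The C-type lectin genes Clec4d and Clec4e encode receptors for fungal and mycobacterial glycolipids, MCL and Mincle, and lie 6.52 kb apart on chromosome 6. Clec4d (chromosome 6, 123262111 to 123275265, plus strand) rose from 183 to 309 by the authors' deposited table, 1.69-fold (1.39 to 2.04, adjusted p = 3.39e-05). The Clec4e means of 184 and 257 from the authors' deposited table gave a ratio of 1.39 (1.13 to 1.71) with an unadjusted p of 0.00182 and an adjusted p of 0.102. Both lectin genes thus had higher knockout means, and only Clec4d passed the test. Trem1, which amplifies inflammatory signalling, averaged 267 in wild type and 281 in knockout by the authors' deposited table (adjusted p = 0.997), with a CV of 18.1%. Trem3, 0.852 kb from Trem1, averaged 84.7 and 105 per the authors' deposited table, a ratio of 1.24 (0.918 to 1.66, adjusted p = 0.844).

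Adhesion genes held the member with the second largest ratio of means among those tested, and it did not pass. Cd177, a glycoprotein of neutrophils that binds PECAM1 on endothelium, averaged 333 in wild type and 720 in knockout by the authors' deposited table, a ratio of 2.16 (1.35 to 3.47). Its unadjusted p was 0.00136 and its adjusted p 0.0852, and its CV of 29.1% was above the 14.8% passed by 10% of clusters. Cxcr2, with a similar wild type mean and a smaller ratio, had a CV of 10.8%. Itgam and Itgb2 encode the 2 chains of the integrin Mac-1. Itgam averaged 1906 in wild type and 2137 in knockout by the authors' deposited table (ratio 1.12, 1.01 to 1.25, unadjusted p = 0.0403, adjusted p = 0.547). Itgb2, which pairs with several integrin alpha chains in all leukocytes, had 5843 against 5704 per the authors' deposited table (ratio 0.976, 0.888 to 1.07, adjusted p = 0.997). Itgam shares 3450 exon bases with the gene model Gm49368 on the same strand.

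S100a8 and S100a9, the 2 chains of calprotectin, which binds calcium and zinc and fills the neutrophil cytosol, both rose. They lie 22.6 kb apart on chromosome 3. S100a9 (chromosome 3, 90692632 to 90695721, minus strand) went from 2144 to 3703 by the authors' deposited table, 1.73-fold (1.48 to 2.01, adjusted p = 2.12e-09). S100a8 (chromosome 3, 90668978 to 90670035, plus strand) went from 1083 to 1718 by the authors' deposited table, 1.59-fold (1.34 to 1.87, adjusted p = 2.80e-05). The intervals of the pair overlap. Per kilobase of exon, the S100a9 level was 4107 normalized counts in wild type and 7094 in knockout, and the S100a8 level 1561 and 2475, so S100a9 stood higher in both genotypes.

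Stfa2l1 (chromosome 16, 36156811 to 36161953, plus strand), a member of the stefin A family of cytosolic cysteine protease inhibitors, had the largest ratio of any tested member. It was low enough for the reads of each library to be derived from the group means, because the mean of a low gene can be split into whole reads weighted by library. The normalized counts were 36.4, 31.8 and 39.5 in the wild type libraries and 78.0, 79.3 and 98.2 in the knockout libraries. All 3 knockout libraries lay above all 3 wild type libraries. The means by the authors' deposited table were 35.9 and 85.2, a 2.37-fold rise (1.64 to 3.43, adjusted p = 0.00127). Stefin A genes are near-identical copies in 1 cluster on chromosome 16, so reads may be split among them and the value of each copy is uncertain. BC100530, another copy, had 0.984, 2.98 and 2.08 in wild type and 6.83, 5.88 and 9.21 in knockout. Stfa1 had 7.87, 6.95 and 8.32 in wild type and 5.85, 3.92 and 5.12 in knockout, so its groups did not overlap either, in the other direction. Of the 3482 clusters with at least 20 reads and values derived in this way, 6.43% had all knockout libraries above all wild type ones and 8.7% all below.

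The other cytosolic and nuclear members did not pass the test. Hdc, which makes histamine, averaged 3546 in wild type and 3618 in knockout by the authors' deposited table (ratio 1.02, 0.928 to 1.12, adjusted p = 0.997). Padi4, the deiminase that citrullinates histones when neutrophil extracellular traps form, had 214 against 237 per the authors' deposited table (1.11, 0.906 to 1.35, adjusted p = 0.942). G0s2, an inhibitor of triglyceride breakdown, was the 1 member lower at an unadjusted p under 0.05. It averaged 3871 in wild type and 3297 in knockout by the authors' deposited table, a ratio of 0.852 (0.756 to 0.959, unadjusted p = 0.00794, adjusted p = 0.254). G0s2 is on chromosome 1, 43.2 Mb from Ptgs2, and Cxcr2, the other member on that chromosome, is 75.9 Mb from it on the other side.

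Of the listed genes of azurophil granules, made in bone marrow precursors, Mpo and Ctsg were near the floor of detection, and Prtn3 was low. Mpo, myeloperoxidase, had 1, 1 and 0 reads in the wild type libraries and 2, 1 and 0 in the knockout libraries. Ctsg, cathepsin G, had 3, 1 and 1 reads in wild type and 1, 2 and 2 in knockout. Neither gene can show a difference at such counts. Prtn3, proteinase 3, had 28.5, 31.8 and 26.0 normalized counts in wild type and 22.4, 22.5 and 13.3 in knockout. All knockout libraries were below all wild type libraries, as in 8.7% of the clusters with derived values. The authors' deposited table gave a ratio of 0.675 (0.384 to 1.19, adjusted p = 0.853). Prtn3 shares 159 exon bases with Plppr3 on the opposite strand, and the use of strand is not given in the sources used here, so reads of the 2 genes may not be separable.

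Later granule and secreted proteins were mixed. Retnlg (chromosome 16, 48872621 to 48874496, plus strand), a resistin-like secreted protein of neutrophils, rose from 1102 to 1717 by the authors' deposited table, 1.56-fold (1.33 to 1.83, adjusted p = 3.39e-05). Mmp8 (chromosome 9, 7558456 to 7568485, plus strand), neutrophil collagenase, rose from 242 to 356 by the authors' deposited table, 1.47-fold (1.25 to 1.73, adjusted p = 0.00116). Lcn2 (chromosome 2, 32384633 to 32388252, minus strand), which binds bacterial siderophores, rose from 2637 to 3321 by the authors' deposited table. Its 1.26-fold change (1.15 to 1.38, adjusted p = 0.000534) was the smallest among the 10 called members, and its CV of 5.61% was the smallest too. Mmp9, gelatinase B, averaged 1073 in wild type and 1220 in knockout by the authors' deposited table (ratio 1.14, 0.965 to 1.34, adjusted p = 0.787). The mean of Pglyrp1, a peptidoglycan-binding protein, was 528 in wild type and 555 in knockout in the authors' deposited table (1.05, 0.898 to 1.23, adjusted p = 0.991).

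Ltf, lactoferrin, had the widest interval of all tested members on the log2 scale. It averaged 2449 in wild type and 1366 in knockout by the authors' deposited table, a ratio of 0.558 (0.226 to 1.37, unadjusted p = 0.205, adjusted p = 0.885). The CV of 56.3% places its libraries far apart within genotypes, but their values could not be derived at this level. The related specific granule genes stood near 0 beside it. Ngp, neutrophilic granule protein, had 8.86, 8.94 and 2.08 normalized counts in wild type and 17.6, 7.84 and 17.4 in knockout. One wild type library was low and 1 knockout library lay within the wild type range, and the unadjusted p was 0.123 in the authors' deposited table. Camp, cathelicidin, had 0, 0 and 2 reads in wild type and 5, 0 and 1 in knockout. Ltf, Ngp and Camp lie on chromosome 9, with gaps of 570 kb between Camp and Ngp and 596 kb between Ngp and Ltf.

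Hp and Lrg1, which reach plasma as acute-phase proteins, did not pass the test. Hp, haptoglobin, averaged 26788 in wild type and 28578 in knockout by the authors' deposited table (ratio 1.07, 0.992 to 1.15, adjusted p = 0.695). Per kilobase of exon its level was the highest of the listed members, 16680 normalized counts in wild type against 4444 for G0s2, the next. Lrg1, a glycoprotein that modifies transforming growth factor beta signalling, averaged 1976 in wild type and 1874 in knockout by the authors' deposited table (0.949, 0.830 to 1.09, adjusted p = 0.980).

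None of the 3 oxidase members passed the authors' DESeq2 comparison, and none had an unadjusted p under 0.05. Cybb, the catalytic membrane subunit, averaged 5598 in wild type and 6152 in knockout by the authors' deposited table (ratio 1.10, 0.983 to 1.23, adjusted p = 0.736). Ncf1, the organizer subunit p47phox, had 2300 against 2249 per the authors' deposited table (0.978, 0.863 to 1.11, adjusted p = 0.997), and it shares 408 exon bases with Gtf2ird2 on the opposite strand. Ncf4, the subunit p40phox, had 567 against 528 per the authors' deposited table (0.932, 0.801 to 1.08, adjusted p = 0.959). The intervals of all 3 end below 1.25. Among the called members, those of Csf3r, Cxcr2, Clec4d, S100a8, S100a9, Stfa2l1 and Retnlg begin above it. Those of Lcn2, Fpr1 and Mmp8 begin below it. The called members were selected by their p-values, and their difference from the oxidase genes was not tested. The genes Cyba, Rac1 and Rac2, which encode further subunits, were tested too, and 0 of the 3 passed, with 0 at an unadjusted p under 0.05 by the authors' DESeq2 test and a median log2 ratio of -0.04.

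**Figure D2:**
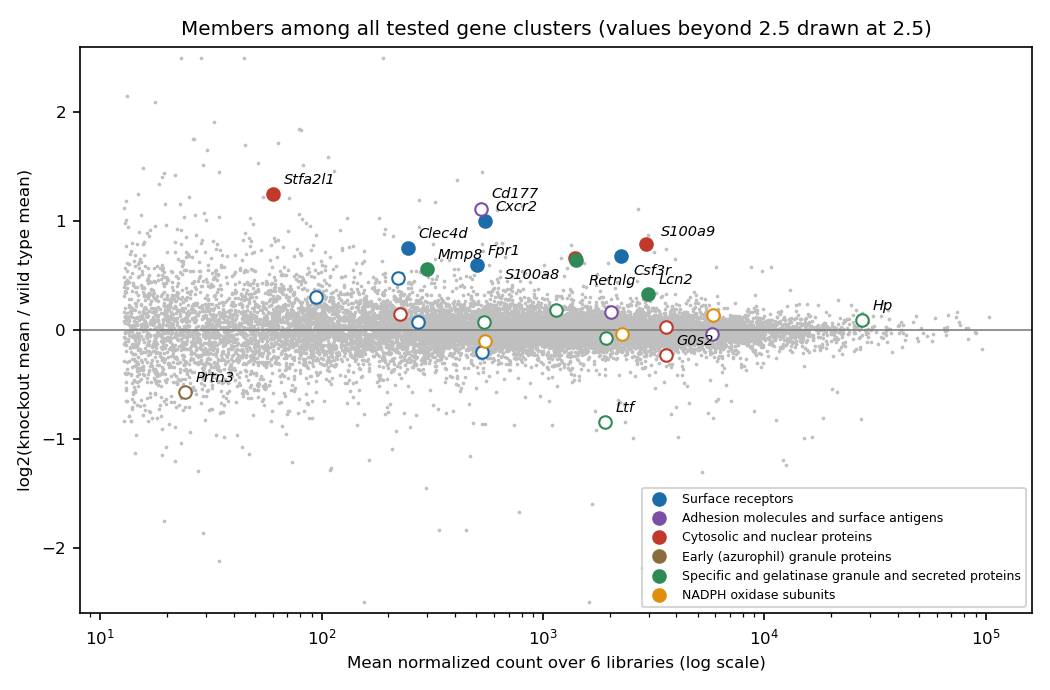
Log2 ratio of the knockout to the wild type mean against the mean over all 6 libraries (log scale) for every tested cluster (grey, values beyond 2.5 in either direction drawn at that limit) and the 29 tested members (coloured by role, filled if called). Stfa2l1 is the called member with the lowest mean and the highest ratio, and Hp has the highest mean of the members.

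Seen among all tested clusters in the plot of ratio against mean, the called members spanned wild type means from 35.9 to 2637 normalized counts. Their ranks by p among the 100 clusters called higher ran from 5 for Csf3r to 59 for Fpr1, with S100a9 at 8, S100a8 at 16, Retnlg at 17, Clec4d at 18, Lcn2 at 27, Mmp8 at 31 and Stfa2l1 at 32.

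The called members lie on several chromosomes and moved in 1 direction, and the 250 bases before their starts were read from RefSeq sequence of GRCm38.p6. Promoter sequence was found for 28 of the 33 listed members, all 10 called ones among them. Motifs were searched on both strands for 2 factors of granulocyte genes, TTGCNNAA for C/EBP and GAGGAA for PU.1. Their matches do not overlap in the windows printed here. TTGCNNAA was found in 9.56% of all 32851 RefSeq promoter windows of that length, in 7 of the 28 member windows and in 4 of the 10 called ones (Lcn2, Mmp8, Retnlg and S100a9). GAGGAA was found in 23.3% of all windows, in 17 of the 28 member windows and in 7 of the 10 called ones. Fpr1 held neither. The windows below belong to the called members with a match whose window holds no annotated exon, and capitals mark matches on either strand. A match is a description of letters and does not show that a factor binds there. In Mmp8 the TTGCNNAA match begins 19 bases upstream of the RefSeq start.
S100a9, chr3:90695722-90695971, minus strand: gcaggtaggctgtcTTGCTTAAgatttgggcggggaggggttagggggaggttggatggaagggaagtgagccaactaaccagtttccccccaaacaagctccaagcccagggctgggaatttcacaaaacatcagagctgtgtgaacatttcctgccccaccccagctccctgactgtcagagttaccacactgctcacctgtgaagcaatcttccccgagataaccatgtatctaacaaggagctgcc
Retnlg, chr16:48872358-48872607, plus strand: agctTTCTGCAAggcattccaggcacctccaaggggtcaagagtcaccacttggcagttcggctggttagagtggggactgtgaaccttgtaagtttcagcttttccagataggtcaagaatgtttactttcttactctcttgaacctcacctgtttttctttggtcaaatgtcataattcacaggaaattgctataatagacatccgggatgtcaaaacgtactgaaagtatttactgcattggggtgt
Mmp8, chr9:7558179-7558428, plus strand: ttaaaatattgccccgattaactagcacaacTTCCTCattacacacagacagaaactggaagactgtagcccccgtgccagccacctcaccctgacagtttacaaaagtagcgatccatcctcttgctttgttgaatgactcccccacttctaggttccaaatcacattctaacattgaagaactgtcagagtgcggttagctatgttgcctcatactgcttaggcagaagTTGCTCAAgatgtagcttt
Clec4d, chr6:123261857-123262106, plus strand: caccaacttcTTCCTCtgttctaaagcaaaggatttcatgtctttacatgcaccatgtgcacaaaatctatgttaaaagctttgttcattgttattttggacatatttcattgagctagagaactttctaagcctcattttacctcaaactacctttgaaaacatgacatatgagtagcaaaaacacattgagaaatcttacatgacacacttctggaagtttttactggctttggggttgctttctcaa
Stfa2l1, chr16:36156561-36156810, plus strand: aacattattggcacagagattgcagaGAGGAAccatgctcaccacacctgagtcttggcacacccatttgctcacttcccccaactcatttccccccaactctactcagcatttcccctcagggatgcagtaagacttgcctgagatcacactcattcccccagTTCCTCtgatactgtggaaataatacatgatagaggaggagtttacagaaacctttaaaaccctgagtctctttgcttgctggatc

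In S100a9 and Retnlg the TTGCNNAA match lay near the far end of the window, 236 and 246 bases upstream. Clec4d and Stfa2l1 held GAGGAA without TTGCNNAA, and Stfa2l1 held it at 2 places. Among 12 tested transcription factors listed for granulocyte development, 0 passed the authors' DESeq2 comparison and 4 were lower at an unadjusted p under 0.05. These were Fos, Jun, Junb and Cebpd, and the list's median log2 ratio was -0.11. Fos, Jun and Junb had wild type means of 14397 or more, beside 29.4 for Cebpe and 39.0 for Gfi1. Their whole lung values, and a list median that includes them, therefore do not describe granulocytes alone. Spi1, which encodes PU.1, averaged 1500 in wild type and 1573 in knockout by the authors' deposited table (adjusted p = 0.986). Cebpe, needed for specific granules, had 27.6, 36.8 and 23.9 normalized counts in wild type and 30.2, 30.4 and 25.6 in knockout, and the groups overlapped. Gfi1 overlapped as well, with 27.0 to 47.7 in wild type and 33.8 to 39.99 in knockout.

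A further 40 genes known in neutrophils were outside the members. Of the 34 with an adjusted p, 1 rose and 0 fell by the authors' DESeq2 comparison. That is 2.94% higher, beside 0.592% of all tested clusters. At an unadjusted p under 0.05, 10 were higher and 1, Cxcr4, was lower, which is 32.4% beside 8.47% of all tested clusters. Knockout means were higher for 29 of the 34, beside 8352 of the 16902 tested clusters, and the median log2 ratio was 0.12. The list is not particular to neutrophils, as Chil3 is also among the monocyte and alveolar macrophage markers used below. Nlrp12, an inhibitory receptor of myeloid cells, was the 1 that passed, with means of 148 and 270 by the authors' deposited table, 1.82-fold (1.42 to 2.34, adjusted p = 0.000772). Alox5ap, needed for leukotriene synthesis, averaged 1814 in wild type and 2118 in knockout by the authors' deposited table (adjusted p = 0.0679). Gsr, glutathione reductase, had 3082 against 3395 per the authors' deposited table (adjusted p = 0.266), and Mcemp1 had 864 and 1011 (adjusted p = 0.400).

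Some of these further genes were low enough to be read by library. Acod1, the itaconate-making enzyme, had 7.87, 9.93 and 6.24 normalized counts in wild type and 20.5, 14.7 and 19.4 in knockout, without overlap, and an adjusted p of 0.535 in the authors' deposited table. Olfm4, carried by a subset of neutrophils, had 4.92, 7.95 and 8.32 in wild type and 10.7, 11.8 and 10.2 in knockout, also without overlap. Ceacam10 had 5.91, 3.97 and 9.36 in wild type and 15.6, 8.82 and 15.3 in knockout, with overlap in 1 knockout library. Itgb2l ran the other way, with 38.4, 33.8 and 33.3 in wild type and 24.4, 26.4 and 18.4 in knockout. Neither Acod1 nor Itgb2l (adjusted p = 0.740 in the authors' deposited table) passed the test, Olfm4 and Ceacam10 had no adjusted p, and 6.43% and 8.7% of all derived clusters likewise did not overlap, higher and lower.

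In the plot of normalized counts per library the letters are kept across genes within a genotype. The knockout library called B was the lowest of the 3 for Ngp, Camp, Cxcr1, Ceacam10, Acod1 and BC100530, and the highest for Olfm4, Itgb2l and Prtn3.

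Ligands of these receptors were examined as well. Of 18 tested ligands, endothelial adhesion molecules and growth factors, 0 rose and 1 fell in the authors' DESeq2 comparison, with 1 higher and 3 lower at an unadjusted p under 0.05 and a median log2 ratio of 0.01. Cxcl2, a ligand of CXCR2, fell from 155 to 63.7 by the authors' deposited table, 2.43-fold lower (95% interval of the ratio 0.272 to 0.622, adjusted p = 0.00504). Cxcl1, another ligand of CXCR2, averaged 90.6 in wild type and 46.9 in knockout by the authors' deposited table (unadjusted p = 0.00227, adjusted p = 0.119). Cxcl3 had 18.7, 17.9 and 23.9 in wild type and 17.6, 9.80 and 12.3 in knockout, with an adjusted p of 0.891 in the authors' deposited table. All its knockout libraries were lower, as in 8.7% of the clusters with derived values. Cxcl5 overlapped, with 14.8, 11.9 and 13.5 in wild type and 24.4, 11.8 and 16.4 in knockout. Cxcl15, a chemokine of lung epithelium, averaged 34009 in wild type and 38693 in knockout by the authors' deposited table (unadjusted p = 0.0141, adjusted p = 0.346). Selp, P-selectin, which lets neutrophils roll on endothelium, had 402 against 317 per the authors' deposited table (adjusted p = 0.187). Csf3, the ligand of CSF3R, had 3, 1 and 2 reads in wild type and 1, 1 and 2 in knockout, so no difference was detectable at this depth.

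Markers of other blood and lung cells were examined beside the members, and their part in the results above was not tested. Of 6 tested red cell markers, 0 passed the authors' DESeq2 comparison and 1, Slc4a1, had an unadjusted p under 0.05, while all 6 means were higher in knockout (median log2 ratio 0.17, summed means 81703 and 89549). Epb42, a red cell membrane protein, had 16.7, 10.9 and 8.32 normalized counts in wild type and 32.2, 15.7 and 10.2 in knockout, and 1 knockout library lay above the wild type range. Stfa2l1 had 78.0 in that library and 79.3 and 98.2 in the others. A relation of red cell content to the members was not tested and cannot be read from 1 library. Of 12 platelet markers, 0 passed and 0 had an unadjusted p under 0.05 by the authors' DESeq2 test, with a median log2 ratio of 0.05 and summed means of 7438 and 7712.

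Among 12 monocyte markers, 0 rose and 1, Nr4a1, fell in the authors' DESeq2 comparison, with 3 higher and 2 lower at an unadjusted p under 0.05, a median log2 ratio of 0.13 and summed means of 106163 and 94676. The 3 were Ccr2, Ly6c2 and Ms4a4c, markers of classical monocytes, and Ccr2 averaged 2565 in wild type and 3232 in knockout by the authors' deposited table (adjusted p = 0.235). Other listed monocyte genes did not reach that threshold in the authors' DESeq2 test. Among them were F13a1 (unadjusted p = 0.143), Chil3 (0.150), Fn1 (0.868) and Csf1r (0.903). Nr4a1 averaged 14598 and 4408 per the authors' deposited table (adjusted p = 0.00256). Ace, the other lower one, averaged 44059 and 39595 (adjusted p = 0.493). In wild type, Ace stood above the endothelial markers Pecam1 (30370) and Cdh5 (35257). Whether the RNA of Nr4a1 and Ace came from monocytes or from other lung cells was not tested. The summed means depend mostly on such high genes, and 7 of the 12 markers had higher knockout means. Of 12 alveolar macrophage markers 0 passed, with 1 higher and 1 lower at an unadjusted p under 0.05 by the authors' DESeq2 test. Their median log2 ratio was 0.04 and their summed means were 38916 and 40782. Of 8 B cell markers, 0 passed, 4 had an unadjusted p under 0.05 and all 8 means were lower in the authors' DESeq2 comparison, with a median log2 ratio of -0.17. The 10 T cell markers had a median log2 ratio of -0.12, and 0 passed while 2 were lower at an unadjusted p under 0.05 by the authors' DESeq2 test. Cell cycle genes, listed for dividing granulocyte precursors, had a median log2 ratio of -0.00096, with 0 of 12 passing and 0 at an unadjusted p under 0.05 by the authors' DESeq2 test. Other dividing cells of the lung express such genes too, so these values do not describe granulocyte precursors alone.

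**Figure D3:**
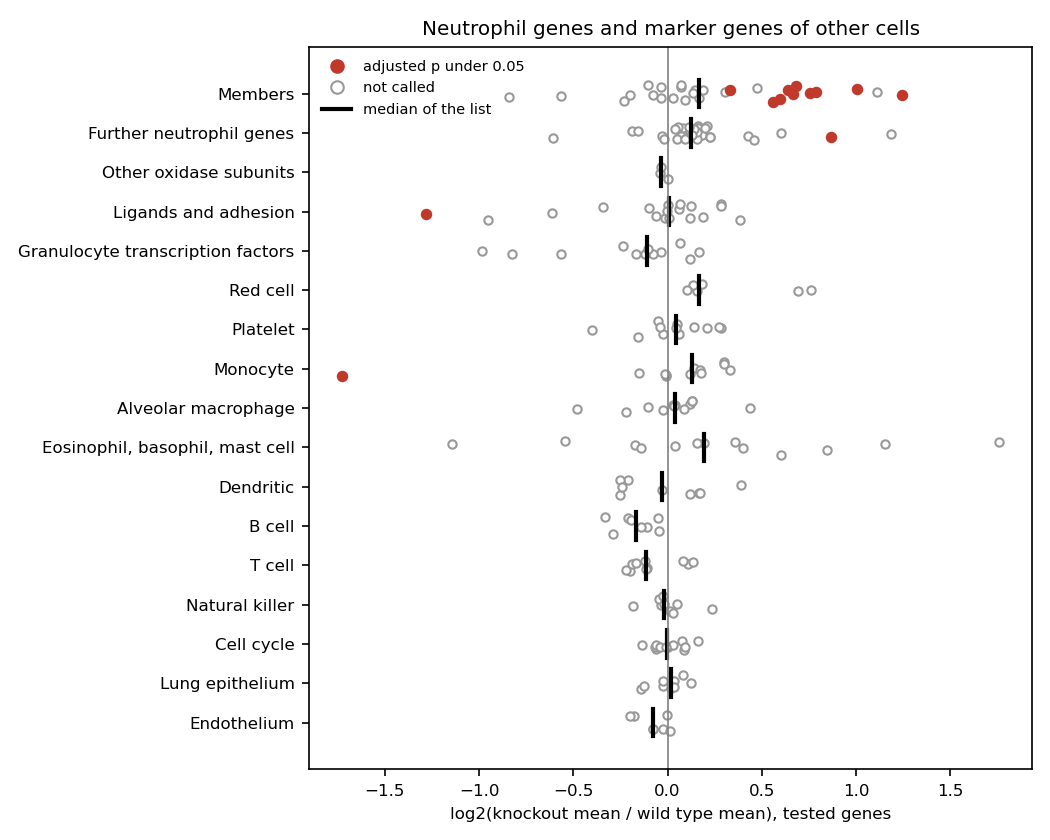
Log2 ratio of knockout to wild type means of each tested gene in the members, related neutrophil lists and marker lists of other cells, with the median of each list as a bar and called genes in red. The members hold 10 called genes, all to the right of 0, and the marker lists of other cells hold 1, Nr4a1, to the left; the related lists hold Nlrp12 to the right and Cxcl2 to the left.

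In the plot of all lists, natural killer cell markers had a median log2 ratio of -0.02, dendritic cell markers -0.03, lung epithelial markers 0.02 and endothelial markers -0.08. In these 4 lists 0 genes passed the authors' DESeq2 comparison, with 0, 3, 1 and 1 at an unadjusted p under 0.05.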

How the data were processed

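Libraries of whole lung RNA (500 ng, TruSeq RNA v2) were read as 50 bp paired ends, per the labels' protocols, which give a mean RNA integrity number of 9.45 (9.0 to 10.0). The build mm10 and the tools DESeq2, STAR 2.5.1b, Bowtie2, bedtools and SAMtools appear in the submitters' processing notes. How reads were counted, with or without strand, and which DESeq2 was run is not given in the sources used here.

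Per the file headers, the authors deposited 1 table with a mean over 6 libraries and per genotype (a signal in normalized counts), a shrunken log2 fold change with its standard error, the Wald statistic (a score), the p-value and the adjusted p-value. The Benjamini-Hochberg adjustment recomputed here differed from the deposited one by a relative 5.58e-07 at most. No test of genes was run here, and a gene was called at an adjusted p under 0.05.

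Folds are ratios of the authors' group means. The interval of a ratio assumes that shrinkage scaled estimate and standard error alike. The prior width this implies was checked over 5707 clusters and was nearly constant (median 0.169, 5th to 95th percentile 0.169 to 0.170). The CV derived from these standard errors carries the authors' dispersion model. Reads per library were derived from group means up to 100 where 1 set of reads gave the mean. Up to a mean of 40, each of the 4901 wild type and 4877 knockout means had exactly 1 set, and the derivation, tested on simulated data, gave 1 set for 100% of 4806 wild type and 84.9% of 4775 knockout means, all of them right. The simulated data were drawn from means up to 40. At higher means several sets were often possible, and values are given only where 1 set was found. Those given are the knockout values of Stfa2l1, Cxcr1 and Prg2 and the values of Mcpt4 in both genotypes, for which the derivation was not checked by simulation.

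Members and lists were chosen with earlier results of these data known. Every listed member is named, and called members and those with derived reads are given in full. Of other lists, called genes, up to 4 genes with the smallest unadjusted p and defining markers at low level are named, and low genes with derived reads, Spi1 and lung markers were added after their values were seen. Of 196 other list symbols, 191 were found in the table, 7 of them by RefSeq synonym. Coordinates are from GENCODE M21 and promoters from RefSeq, matched by symbol. Python 3.11.15 with numpy 2.4.6, pandas 2.3.3 and scipy 1.17.1 was used. Alternatives were other thresholds, filters, scalings and left-out libraries. Protein sequences are not used here, and the results of some list genes are not reported here.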

Additional observations from a re-analysis of the deposited data

How the results depend on the processing

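The count of called members was 10, all higher, and stayed at 10 with Benjamini-Hochberg adjustment over every cluster with a p-value, over clusters with a mean of at least 50, and with all rows of a symbol counted. It was 9 at an adjusted p under 0.01 and 11 at one under 0.1, where Cd177 joined, and the count called lower was 0 throughout (G0s2 was lower at an unadjusted p under 0.05 by the authors' DESeq2 test). Group means rescaled to equal sums, which shifts log2 ratios by 0.0109, or centred on the median, by 0.00131, left all 10 called in both, with adjusted p-values up to 0.0127. These 2 scalings were applied to the counts after the data were seen. The median log2 ratio of the members was 0.17, and 0.19 with all listed members, 0.18 at a mean of at least 50 and 0.11 with the shrunken fold change. With each library left out in turn, the log2 ratio of Stfa2l1 ranged from 1.13 to 1.32, that of Prtn3 from -0.69 to -0.36 and that of Ngp from 0.68 to 1.40. Ngp changed most without wild type library C, at 0.68 against 1.11 with all libraries. For other called members no library could be left out, as only group means were used. No paired analysis was possible, because only group means were used and the titles give the genotypes no shared replicate numbers. Serial numbers in the titles alternate between wild type and knockout, and what this order means is not stated.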

Other observations

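Of 13 tested markers of eosinophils, basophils and mast cells, 0 passed the authors' DESeq2 comparison. At an unadjusted p under 0.05, 4 were higher and 4 lower, beside 8.47% of all tested clusters in either direction. The higher ones are genes of eosinophils and basophils, but other listed genes of these cells did not reach that threshold in the authors' DESeq2 test. Siglecf averaged 945 in wild type and 972 in knockout (unadjusted p = 0.713). Ms4a2 averaged 44.4 and 56.8 (unadjusted p = 0.217), and Fcer1a 15.1 and 22.8 (unadjusted p = 0.188). Prg2, the eosinophil major basic protein, had 11.8, 17.9 and 6.24 normalized counts in the wild type libraries and 31.2, 59.8 and 30.7 in the knockout libraries, with no overlap and an adjusted p of 0.0532 in the authors' deposited table. Ccr3, the eotaxin receptor, averaged 380 in wild type and 501 in knockout by the authors' deposited table (adjusted p = 0.0852), and Il5ra, a chain of the interleukin-5 receptor, had 43.5 against 78.1 per the authors' deposited table (adjusted p = 0.159). Mcpt8, a basophil protease, had 13.8, 4.97 and 23.9 in wild type and 41.0, 27.4 and 26.6 in knockout, with no overlap and an adjusted p of 0.491 in the authors' deposited table. Like Prg2 and Mcpt8, 6.43% of the clusters with derived values had all knockout libraries higher.

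Of the mast cell proteases, none passed the test. Cpa3, carboxypeptidase A3, averaged 109 in wild type and 125 in knockout by the authors' deposited table (adjusted p = 0.936). Mcpt4 had 54.1, 65.6 and 61.4 in wild type and 41.9, 41.1 and 40.9 in knockout, with no overlap and an adjusted p of 0.586 in the authors' deposited table. Of the clusters with derived values, 8.7% likewise had all knockout libraries lower. Tpsb2, a tryptase, had 23.6, 34.8 and 19.8 in wild type and 15.6, 16.7 and 3.07 in knockout, with an adjusted p of 0.586 in the authors' deposited table. Kit and Gata2 were the other 2 with lower means at an unadjusted p under 0.05. They averaged 9341 and 5449 in wild type, far above the 109 of Cpa3. Whether their RNA came from mast cells or from other lung cells was not tested. The eosinophil, basophil and mast cell genes named here were picked out after their values were seen.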
